A study of Mus with 14 samples.

Results

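The 8 genes described here are the HoxA cluster genes Hoxa5, Hoxa7, Hoxa9 and Hoxa10 and the HoxB cluster genes Hoxb2, Hoxb3, Hoxb4 and Hoxb5. They were taken by name, with earlier results of these data known, from the 32285 genes of the deposited single-cell count matrices, and all 8 were found in each of the 14 matrices. In RefSeq's annotation of GRCm38.p6, the build the matrices use, the HoxA members lie on mouse chromosome 6 (Hoxa5 at chr6:52201754-52204587, Hoxa7 at chr6:52215623-52218573, Hoxa9 at chr6:52223097-52227370 and Hoxa10 at chr6:52231197-52240854). The HoxB members lie on chromosome 11 (Hoxb5 at chr11:96303512-96306121, Hoxb3 at chr11:96307101-96347930, Hoxb4 at chr11:96318267-96321638 and Hoxb2 at chr11:96351632-96354020). Several of these genes overlap a neighbour. The Hoxb3 gene spans Hoxb4, the non-coding gene Hoxb3os (chr11:96343034-96353394) reaches into Hoxb3 and Hoxb2, Hoxb5os (chr11:96291037-96306910) covers Hoxb5, and Hoxa3 (chr6:52169059-52213067) spans Hoxa5. How strand was used in counting is not given in the sources used here, so the counts of overlapping genes may share reads and are given as uncertain in that respect.

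Hox genes encode homeodomain transcription factors that sit in clusters and are switched on in an order that follows the cluster. In blood, the HoxA and HoxB genes are known as genes of stem and early progenitor cells that are turned down as cells mature, with Meis1 among their DNA-binding partners, MLL complexes keeping them on and Polycomb complexes keeping them off. Dnmt3a is a DNA methyltransferase whose loss of function is common in clonal hematopoiesis, the outgrowth of blood from a mutated stem cell, and the series asks how the TNF receptors Tnfr1 (gene Tnfrsf1a) and Tnfr2 (gene Tnfrsf1b) bear on such cells.

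The samples were bone marrow cells of 14 mice, 1 library per mouse, from 4 donor genotypes. They comprised 3 MxCre mice, 4 Dnmt3a mice, 3 Dnmt3a;Tnfr1KO mice and 4 Dnmt3a;Tnfr2KO mice. Donors of the last pair of groups also carry the Dnmt3a genotype and are called the Tnfr1KO and Tnfr2KO groups from here on. MxCre is a Cre recombinase under an interferon-inducible promoter, which poly(I:C) turns on in blood cells and in other tissues, and the labels name the Dnmt3a genotype without its allele. Per the labels' protocols, 1000000 CD45.2+ donor cells were mixed with 1000000 CD45.1+ competitor cells in primary recipients, poly(I:C) was given 1 month later, blood was followed for 16 weeks, and 4000000 marrow cells went into lethally irradiated, aged CD45.1+ secondary recipients. Donor-derived Lin-Kit+CD45.2+ cells, which are marrow cells without mature lineage markers and with the Kit receptor, were sorted 20 weeks later and 12000 cells were loaded for 3′ single-cell RNA sequencing. Which primary recipient each mouse's cells came from is not in the labels, so donors may be shared within a group and the p-values measure the spread between these mice only.

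The 14 libraries held 86693 barcodes (3042 to 9724 each) and 62416022 to 162869740 UMIs, which count captured RNA molecules. Levels are given as CPM, the UMIs of a gene per 1000000 UMIs of the sum it belongs to. After filters on UMIs, genes, mitochondrial share and doublets, 66895 cells were kept (1924 to 7265 per library). The Dnmt3a replicate 1 library stood apart with 26.5% of its barcodes kept and the highest median, 39097.5 UMIs per kept cell, against a lowest median of 10759 in Dnmt3a replicate 4. Libraries shared few barcodes (541 were seen in 2 or more libraries, at most 15 by any pair). Over all kept cells Tnfrsf1b stood at 4.78 ± 0.68 CPM (SD, n = 4) in the Tnfr2KO group against 14 ± 3.0 in MxCre mice. Tnfrsf1a stood at 36.2 ± 2.5 CPM (SD, n = 3) in the Tnfr1KO group and 42.9 ± 3.0 in MxCre mice, and Dnmt3a at 33.4 ± 4.3 CPM in the Dnmt3a group and 25.3 ± 4.8 in MxCre mice. A 3′ count can lie outside a deleted part, so these values for Tnfrsf1a and Dnmt3a do not check the labels.

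Cells were sorted into lineage classes by summed marker UMIs per 10000, with thresholds set after the cells had been seen and with no Hox gene among the markers. The hematopoietic stem cell (HSC)-like class held 4742 cells (7.09% of kept cells), defined by at least 4 UMIs per 10000 of Hlf, Mecom, Procr, Fgd5, Mllt3 and Gcnt2. Hlf was seen in 93.3% of these cells, Mecom in 66.0% and Procr in 25.4%. The threshold falls inside a continuum, with 1246 HSC-like cells between 4 and 5 UMIs per 10000 and 1772 cells between 3 and 4 just outside. The other classes were multipotent-like (17175 cells), lymphoid-primed-like (1007), megakaryocyte-like (2855), erythroid-like (6419), basophil/mast-like (1518), granulocyte-like (16264), granulocyte-monocyte-like (3802), monocyte-like (6239), dendritic-like (38), B-lymphoid-like (2275), mature B-like (835) and T/NK-like (179) cells, and 3547 cells were in no class. UMIs were summed per mouse and class, and sums of at least 20 cells were used, which no mouse had for the dendritic-like class. In the HSC-like class the sums ran from 1510263 to 10759168 UMIs.

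Of the classes measured in 12 or more mice, HSC-like cells had the highest mean level of every member except Hoxa7, and all 8 were lower in the myeloid and erythroid classes. HSC-like sums were set against each of 11 other classes of the same mice with the library as a block (edgeR quasi-likelihood test, Benjamini-Hochberg over all genes, called at an adjusted p under 0.05). Of the 88 contrasts of a member with a class, 79 were higher in HSC-like cells and 0 were lower. Many other genes were also higher in HSC-like cells, so the share of all tested genes called higher is given beside each count. It was 35.1% against multipotent-like cells (7 of 8 members called higher), 18.4% against lymphoid-primed-like cells (6 of 8), 28.1% against megakaryocyte-like cells (8 of 8), 38.5% against erythroid-like cells (8 of 8) and 25.1% against basophil/mast-like cells (8 of 8). It was 43.2% against granulocyte-like cells (8 of 8), 44% against granulocyte-monocyte-like cells (8 of 8), 40.3% against monocyte-like cells (8 of 8), 28.1% against B-lymphoid-like cells (7 of 8), 28.4% against mature B-like cells (7 of 8) and 11.3% against T/NK-like cells (4 of 8). The members' median log2 difference was smallest against megakaryocyte-like cells (1.01), multipotent-like cells (1.08), lymphoid-primed-like cells (1.07) and basophil/mast-like cells (1.18). It was 2.27 against erythroid-like, 2.40 against granulocyte-like, 2.57 against monocyte-like and 3.11 against granulocyte-monocyte-like cells. The B-lymphoid-like values rest on 5 mice, the mature B-like on 7 and the T/NK-like on 2. The member not called against B-lymphoid-like and mature B-like cells was Hoxb5 (log2 difference 0.32 and 2.88, edgeR adjusted p = 0.666 and 0.0523). Against lymphoid-primed-like cells Hoxa7 and Hoxa9 were not called (log2 difference -0.22 and 0.25, edgeR adjusted p = 0.138 and 0.0994).

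**Figure D1:**
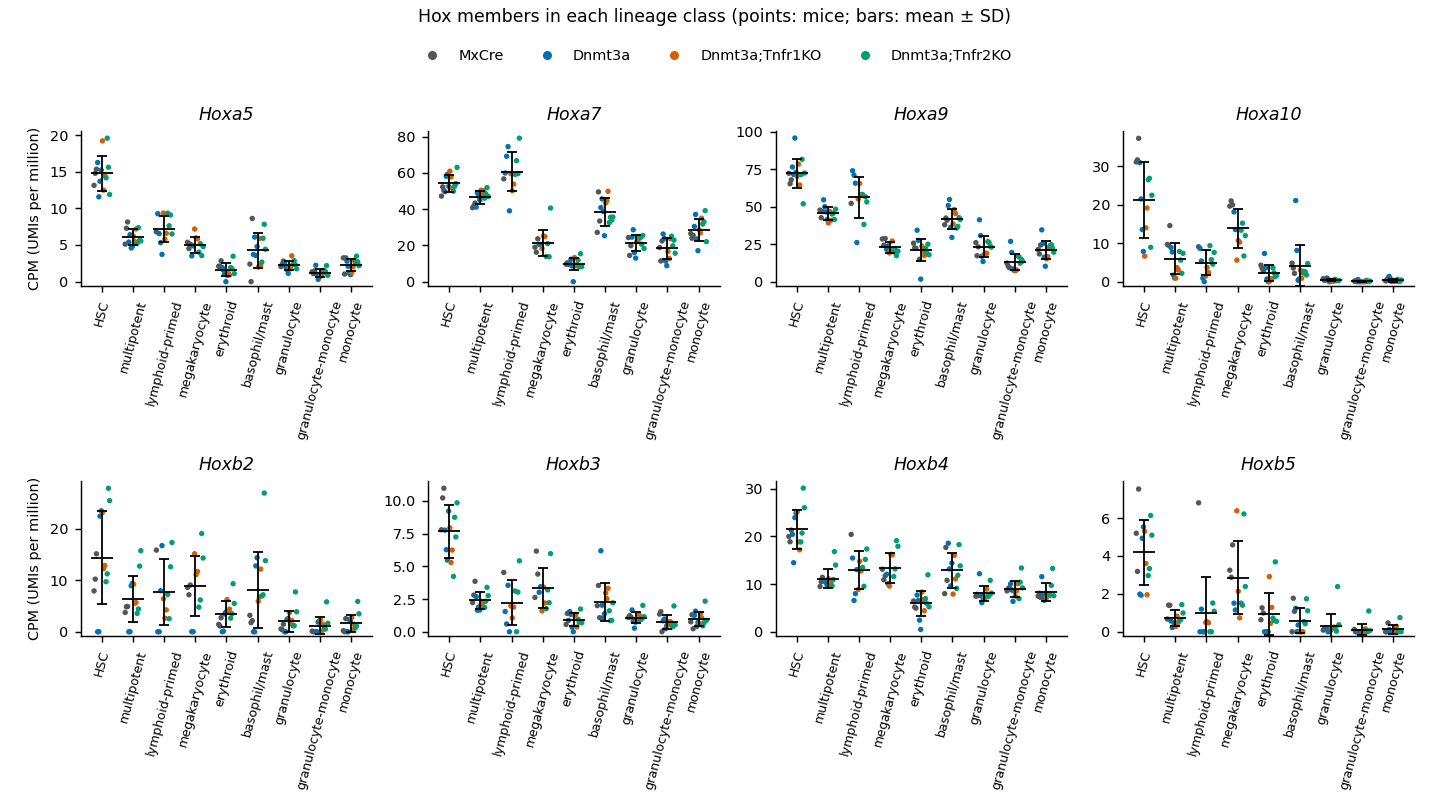
CPM of each member by lineage class, 1 point per mouse with at least 20 cells of that class, coloured by group, with mean and SD as bars. The linear y axes start just below 0 and differ between panels. Hoxa10 falls from 21.3 CPM in HSC-like cells to 0.378 CPM in granulocyte-like cells, while Hoxa7 lies at 60.6 CPM in lymphoid-primed-like and 54.2 CPM in HSC-like cells.

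Among the HoxA members, Hoxa9, the best known Hox gene of normal progenitors and of leukemia, stood at 72.2 ± 9.77 CPM (SD, n = 14) in HSC-like cells, 56.1 ± 13.4 in lymphoid-primed-like (n = 12), 45.5 ± 4.13 in multipotent-like and 41.5 ± 6.62 in basophil/mast-like cells. Below these it lay at 23.1 ± 7.03 CPM in granulocyte-like, 22.8 ± 3.72 in megakaryocyte-like, 21.1 ± 5.80 in monocyte-like, 21 ± 7.35 in erythroid-like and 13.1 ± 5.54 in granulocyte-monocyte-like cells. Its step from HSC-like to lymphoid-primed-like cells passed an exact two-sided sign-flip permutation test over mice on log2(CPM + 1) (adjusted p = 0.0129 over 72 neighbour pairs, 11 of 12 mice), as did the step from basophil/mast-like to granulocyte-like cells (adjusted p = 0.0022, 14 of 14 mice). In the edgeR test with TMM scaling, the log2 difference between HSC-like and lymphoid-primed-like cells was 0.25 and was not called (adjusted p = 0.0994). The first of these steps thus depends on the test and scaling. The steps of Hoxa9 among granulocyte-like, megakaryocyte-like, monocyte-like and erythroid-like cells did not pass the test. After each cell was thinned to 5000 UMIs, a Hoxa9 UMI was seen in 30.3% of HSC-like cells (95% exact interval 28.9 to 31.6, counting error only), in 20.5% of multipotent-like cells and in 10.0% of granulocyte-like cells. In B-lymphoid-like cells, where Hoxa9 should be low, the share was 0.782% of thinned cells (unthinned, 57.2% of HSC-like and 1.58% of B-lymphoid-like cells, whose median depths were 12850 and 5068 UMIs). That share is set by Dnmt3a replicate 4, which held 1956 of the 2275 B-lymphoid-like cells: it was 0.209% there and 3.57% (95% exact interval 1.45 to 7.22) over the 196 thinned cells of the other mice. On CPM the B-lymphoid-like level of Hoxa9 was 0.296 in that mouse and 9.39 to 17.6, from 3 to 14 UMIs, in the other 4 mice with a sum, around its granulocyte-monocyte-like level.

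Hoxa7, a neighbour of Hoxa9 with a similar known role, was the member with the flattest profile among early cells. It stood at 60.6 ± 10.8 CPM (SD, n = 12) in lymphoid-primed-like, 54.2 ± 4.77 (n = 14) in HSC-like, 46.4 ± 3.59 in multipotent-like and 38.3 ± 7.68 in basophil/mast-like cells. The HSC-like and lymphoid-primed-like levels did not differ beyond their spread (adjusted p = 0.184, exact sign-flip permutation test). On plain CPM Hoxa7 was higher in HSC-like than in multipotent-like cells in 14 of 14 mice, by 0.22 on the log2(CPM + 1) scale (adjusted p = 0.0022, exact sign-flip permutation test), but with edgeR's TMM scaling the log2 difference was 0.04 (adjusted p = 0.720), so that step depends on the scaling. Hoxa5, which lies on the other side of Hoxa7 in the cluster, stood at 14.8 ± 2.39 CPM in HSC-like cells (n = 14), 7.16 ± 1.82 in lymphoid-primed-like (n = 12), 6.03 ± 1.09 in multipotent-like (n = 14), 5.0 ± 1.05 in megakaryocyte-like (n = 12) and 2.22 ± 0.61 in granulocyte-like cells (n = 14). Its step down from HSC-like cells was seen in 12 of 12 mice (adjusted p = 0.0032, exact sign-flip permutation test).

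Hoxa10 had the steepest fall of the HoxA members toward the myeloid classes. It stood at 21.3 ± 9.89 CPM (SD, n = 14) in HSC-like cells, 13.8 ± 5.11 (n = 12) in megakaryocyte-like, 5.95 ± 4.05 (n = 14) in multipotent-like and 4.89 ± 3.29 (n = 12) in lymphoid-primed-like cells, and at 0.378 ± 0.280 in granulocyte-like, 0.373 ± 0.398 in monocyte-like and 0.106 ± 0.168 in granulocyte-monocyte-like cells (n = 14 each). Its log2 difference between HSC-like and granulocyte-like cells was 5.47 and between HSC-like and megakaryocyte-like cells 0.79 (edgeR, both called). The megakaryocyte-like class was thus next to HSC-like cells for Hoxa10, and each of the steps from HSC-like to megakaryocyte-like and from there to multipotent-like cells was seen in 12 of 12 mice (adjusted p = 0.0032 each, exact sign-flip permutation test). A Hoxa10 UMI was seen in 12.8% of thinned HSC-like cells, 7.77% of megakaryocyte-like, 3.23% of multipotent-like and 0.166% of granulocyte-like cells.

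For each of the 4 HoxB members, too, the megakaryocyte-like class had the next highest mean CPM after the HSC-like class among classes measured in 12 or more mice. The step from there to the next class passed only for Hoxb5 (lymphoid-primed-like, adjusted p = 0.0402, exact sign-flip permutation test). By the same test it did not pass for Hoxb2 (8.14 CPM in basophil/mast-like cells, adjusted p = 0.165), Hoxb3 (multipotent-like, 0.153) or Hoxb4 (12.9 CPM in lymphoid-primed-like cells, 0.788). Hoxb4, whose forced expression is known to expand stem cells, stood at 21.5 ± 4.10 CPM (SD, n = 14) in HSC-like and 13.5 ± 3.14 (n = 12) in megakaryocyte-like cells, and had the shallowest decline: 11.1 ± 2.0 in multipotent-like, 9.04 ± 1.70 in granulocyte-monocyte-like, 8.37 ± 1.88 in monocyte-like, 8.06 ± 1.60 in granulocyte-like and 5.94 ± 2.68 in erythroid-like cells (n = 14 each). Hoxb3, whose gene spans Hoxb4, stood at 7.66 ± 2.01 CPM in HSC-like, 3.33 ± 1.5 in megakaryocyte-like, 2.39 ± 0.65 in multipotent-like and 1.07 ± 0.42 in granulocyte-like cells. Hoxb5, which is used as a marker of long-term stem cells, stood at 4.19 ± 1.73 CPM in HSC-like, 2.84 ± 1.93 in megakaryocyte-like, 0.731 ± 0.421 in multipotent-like and 0.126 ± 0.225 in monocyte-like cells, where 8 of 14 mice had no UMI. Hoxb2 stood at 14.4 ± 8.95 CPM in HSC-like, 8.94 ± 5.81 in megakaryocyte-like, 6.34 ± 4.45 in multipotent-like and 2.06 ± 2.05 in granulocyte-like cells. The step from HSC-like to megakaryocyte-like cells was called for all 4 (12 of 12 mice for Hoxb3 and Hoxb4, 10 of 12 for Hoxb5 and 9 of 12 for Hoxb2, adjusted p = 0.0032, 0.0032, 0.0132 and 0.0165, exact sign-flip permutation test). In all, 26 of the 72 steps between neighbouring classes, taken over the 8 members, passed this test.

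Between genotypes, the HSC-like levels of Hoxa5, Hoxa7 and Hoxa9 overlapped and none of these genes was called, and Hoxa10 had the widest spread of the HoxA members. Hoxa9 stood at 72.2, 65.2 and 67.9 CPM in the 3 MxCre mice, 76.4, 71.4, 95.7 and 72.8 in the 4 Dnmt3a mice, 70.2, 78.3 and 64.4 in the 3 Tnfr1KO mice and 71.2, 81.5, 51.8 and 72.4 in the 4 Tnfr2KO mice. The groups overlapped, with Dnmt3a replicate 3 highest and Tnfr2KO replicate 3 lowest. Hoxa7 ran from 47.2 to 52.3 CPM in MxCre, 49.6 to 59.2 in Dnmt3a, 51.5 to 60.9 in Tnfr1KO and 49.9 to 63.0 in Tnfr2KO mice. Hoxa5 ran from 13.1 to 15.3, 11.6 to 16.2, 12.5 to 19.2 and 11.9 to 19.6 CPM in the same order. Against MxCre, the log2 fold changes of Hoxa5, Hoxa7 and Hoxa9 lay between -0.11 and 0.23 in the 3 comparisons, and the lowest adjusted p was 0.562 (edgeR).

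Hoxa10, which is known to act in early progenitors, stood in HSC-like cells at 31.0, 31.6 and 37.2 CPM in the MxCre mice, 30.9, 21.5, 13.5 and 7.84 in the Dnmt3a mice, 6.62, 14 and 19.1 in the Tnfr1KO mice and 26.4, 26.8, 8.92 and 22.4 in the Tnfr2KO mice. All 11 mice with the Dnmt3a genotype lay below all 3 MxCre mice, although the highest of them (Dnmt3a replicate 1) and the lowest MxCre mouse differed by less than counting error. How large a share of all tested genes separates these mice in the same way was not counted, here or in multipotent-like cells. The mean was 33.3 ± 3.40 CPM over the 3 MxCre mice, 18.4 ± 10.0 over the 4 Dnmt3a mice, 13.2 ± 6.28 over the 3 Tnfr1KO mice and 21.1 ± 8.38 over the 4 Tnfr2KO mice (SD). The log2 fold change against MxCre was -0.88 ± 0.32 (SE, edgeR adjusted p = 0.112) in the Dnmt3a group, -1.22 ± 0.38 (adjusted p = 0.187) in Tnfr1KO and -0.53 ± 0.31 (adjusted p = 0.583) in Tnfr2KO, so none passed edgeR's test. With Dnmt3a replicates 1 and 2 left out, a choice made after seeing the data, the Dnmt3a value was -1.62 (edgeR adjusted p = 0.0198, 4.28% of all tested genes called). These were the Dnmt3a mice with the highest Hoxa10 (30.9 and 21.5 CPM), so a larger fall was built into that choice. Without a filter on low counts the edgeR adjusted p was 0.0170 for Dnmt3a (5.1% of all tested genes called) and 0.00833 for Tnfr1KO (1.45%). It was 0.00366 for Tnfr1KO with only the 2 groups compared (3.29%) and 0.0471 for Dnmt3a with cells thinned to 5000 UMIs (3.17%). In most alternatives HSC-like Hoxa10 stayed uncalled against MxCre: in 22 of 25 for Dnmt3a, 23 of 25 for Tnfr1KO and 25 of 25 for Tnfr2KO. In multipotent-like cells Hoxa10 stood at 9.65, 9.44 and 14.5 CPM in MxCre, 8.85, 7.70, 1.68 and 0.95 in Dnmt3a, 0.91, 3.64 and 3.04 in Tnfr1KO and 7.81, 5.60, 2.17 and 7.36 in Tnfr2KO mice, again with no overlap with MxCre. There the log2 fold change against MxCre was -1.34 (edgeR adjusted p = 0.153) in Dnmt3a, -2.08 (0.173) in Tnfr1KO and -0.89 (0.573) in Tnfr2KO. Without Dnmt3a replicates 1 and 2, again the Dnmt3a mice with the highest Hoxa10, the first was -3.05 (edgeR adjusted p = 0.00768, 11.1% of all tested genes called) and the second -2.06 (0.0379, 1.91%). With only the 2 groups compared the Tnfr1KO value was -2.10 (edgeR adjusted p = 0.0129, 2.75%). Marker levels also differed in HSC-like cells: the summed megakaryocyte markers, of which 1 of 8 had no UMI, ran from 89.6 to 125 CPM in MxCre, 49.3 to 55.9 in Dnmt3a, 53.0 to 61.4 in Tnfr1KO and 44.6 to 85.3 in Tnfr2KO mice. The summed granulocyte markers, all 10 with UMIs, ran from 598 to 729, 809 to 1206, 915 to 1364 and 953 to 1311 CPM. The summed erythroid markers, all 8 with UMIs, ran from 122 to 341, 90.3 to 2047, 75.5 to 103 and 103 to 212 CPM, and the highest value was that of Dnmt3a replicate 4, the Dnmt3a mouse with the lowest Hoxa10, where the globin gene Hbb-bt made up 1987 CPM of it. Without that mouse the Hoxa10 fold change was -0.69 (log2, edgeR adjusted p = 0.159). The part of these markers in the Hoxa10 values was not tested.

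**Figure D2:**
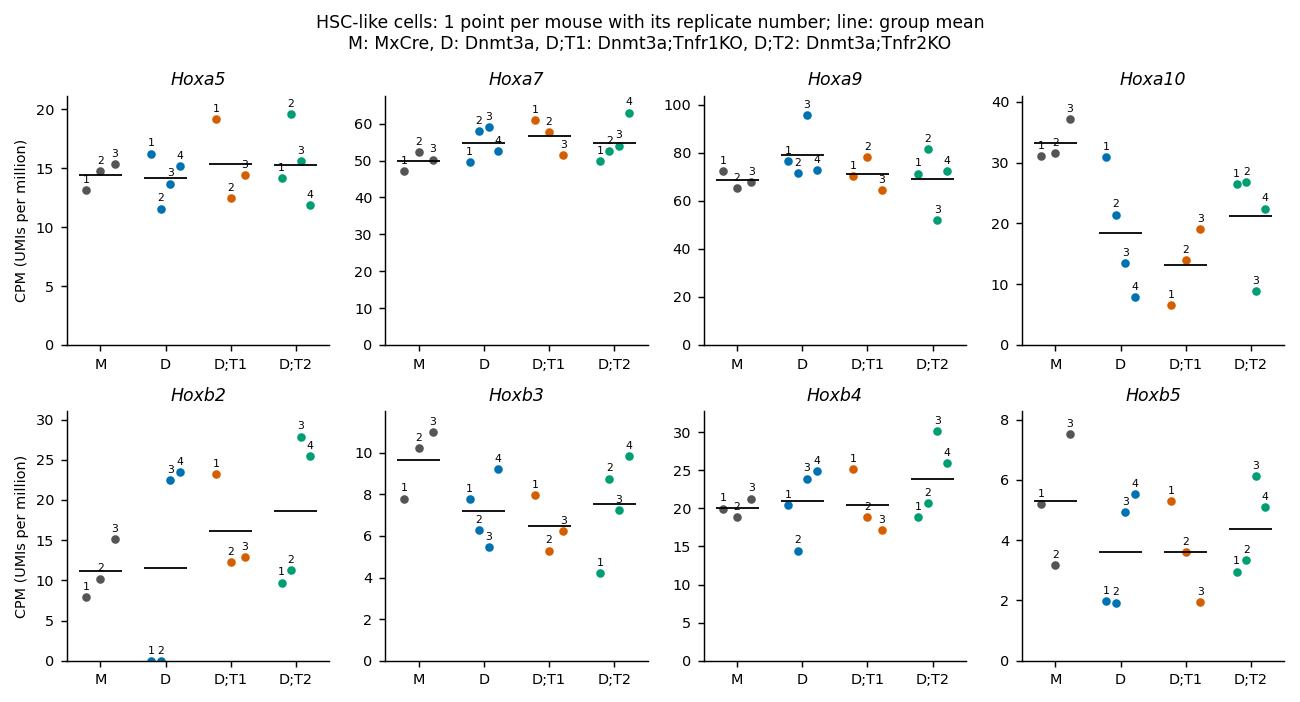
CPM of the 8 members in HSC-like cells, 1 point per mouse with its replicate number, groups on the x axis and the group mean as a line; y axes start at 0. Hoxa10 lies at 31.0 CPM or more in the 3 MxCre mice and at 30.9 CPM or less in the other 11, and Hoxb2 is at 0 in Dnmt3a replicates 1 and 2.

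The HoxB members did not pass the test in HSC-like cells in any comparison, and Hoxb2 split the Dnmt3a mice. Hoxb2 stood at 7.93, 10.2 and 15.2 CPM in the MxCre mice, 0, 0, 22.5 and 23.5 in the Dnmt3a mice, 23.2, 12.3 and 12.9 in the Tnfr1KO mice and 9.72, 11.3, 27.9 and 25.5 in the Tnfr2KO mice. The Dnmt3a group therefore held the lowest mice and 2 of the higher ones, and its log2 fold change against MxCre was -0.15 ± 0.80 (SE, adjusted p = 0.945). Hoxb4 stood at 20.0, 18.9 and 21.3 CPM in MxCre, 20.4, 14.5, 23.9 and 24.9 in Dnmt3a, 25.2, 18.8 and 17.2 in Tnfr1KO and 18.8, 20.7, 30.1 and 26 in Tnfr2KO mice, with overlap between all groups. Hoxb3 stood at 7.79, 10.2 and 11 CPM in MxCre, 7.76, 6.27, 5.48 and 9.22 in Dnmt3a, 7.95, 5.29 and 6.24 in Tnfr1KO and 4.23, 8.75, 7.25 and 9.85 in Tnfr2KO mice (Dnmt3a against MxCre -0.55 ± 0.24, SE, edgeR adjusted p = 0.198). Hoxb5, with 300 UMIs in all HSC-like cells together, stood at 5.20, 3.18 and 7.53 CPM in MxCre, 1.99, 1.93, 4.93 and 5.53 in Dnmt3a, 5.30, 3.60 and 1.95 in Tnfr1KO and 2.96, 3.33, 6.13 and 5.10 in Tnfr2KO mice (Dnmt3a against MxCre -0.75 ± 0.40, SE, edgeR adjusted p = 0.290). When cells with an Hlf UMI were taken as HSC-like instead, Hoxb3 and Hoxb5 passed for Dnmt3a against MxCre (edgeR adjusted p = 0.0226 and 0.0046), where 15% of all tested genes were called. Hoxb5 also passed for Tnfr1KO against MxCre by that rule (-1.27, edgeR adjusted p = 0.0467, 4.95% of all tested genes called).

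Over the 6 comparisons of HSC-like cells, edgeR called 0 of 8 members each time and DESeq2 0. At an unadjusted p under 0.05, edgeR had 2 members for Dnmt3a against MxCre (Hoxa10 and Hoxb3), 1 for Tnfr1KO against MxCre (Hoxa10) and 0 in the other 4. Of all 11520 tested genes, 2548, 1192, 1312, 1647, 1556 and 489 passed that cut, in the order of the comparisons listed next. The share of all tested genes called was 5.48% for Dnmt3a against MxCre, 0.651% for Tnfr1KO against MxCre, 0.998% for Tnfr2KO against MxCre, 0.486% for Tnfr1KO against Dnmt3a, 0.451% for Tnfr2KO against Dnmt3a and 0.104% for Tnfr2KO against Tnfr1KO. The members' median log2 fold change was -0.13 for Dnmt3a against MxCre (all genes 0.01), 0.06 for Tnfr1KO against MxCre (all genes 0.01) and 0.11 for Tnfr2KO against MxCre (all genes 0.01). It was 0.10 for Tnfr1KO against Dnmt3a (all genes -0.01), 0.27 for Tnfr2KO against Dnmt3a (all genes -0.01) and 0.22 for Tnfr2KO against Tnfr1KO (all genes 0.005). These comparisons share control mice, so they are not independent of each other. Against the Dnmt3a group, Hoxa10 changed by -0.33 ± 0.38 (SE, edgeR adjusted p = 0.758) in Tnfr1KO and 0.35 ± 0.31 (adjusted p = 0.680) in Tnfr2KO mice, and Hoxb4 by 0.07 and 0.30 (adjusted p = 0.933 and 0.477).

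**Figure D3:**
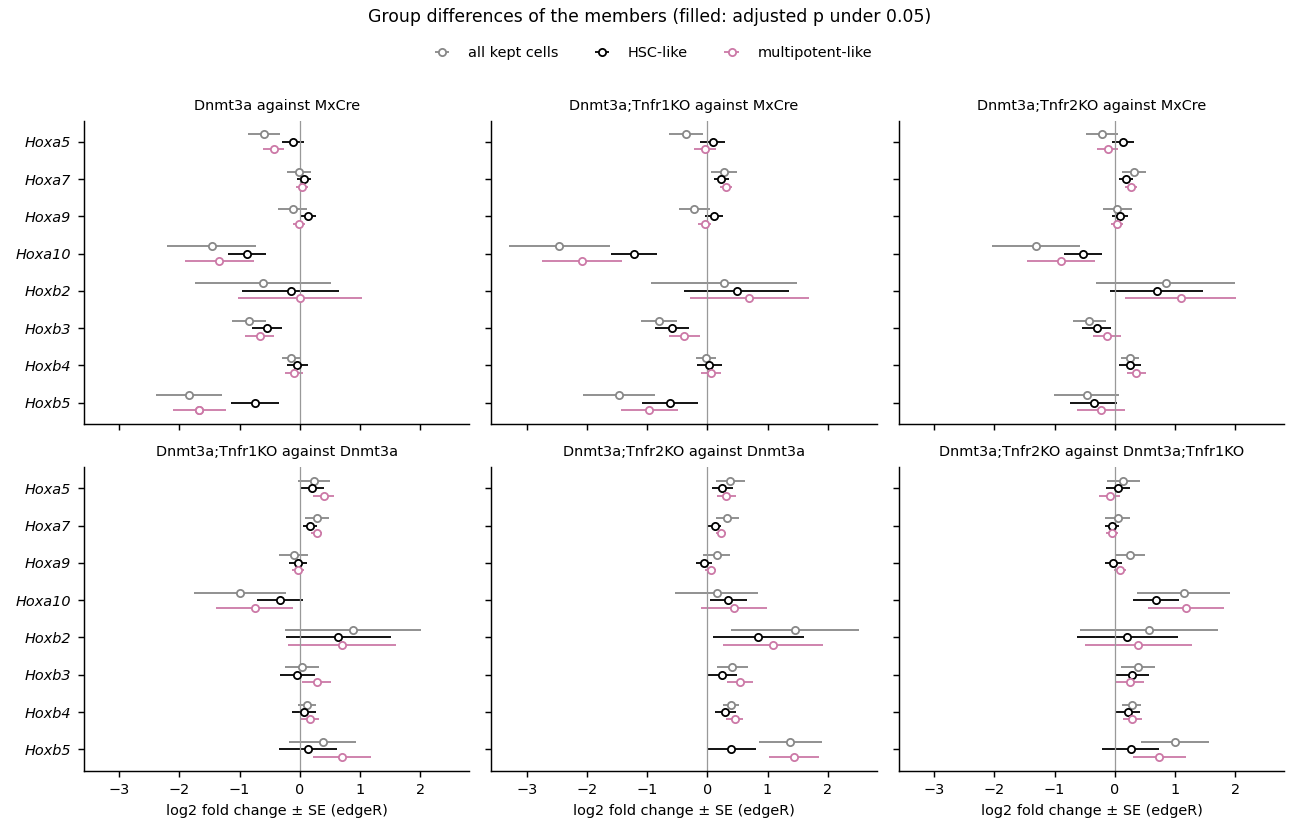
edgeR log2 fold change (x axis) with its SE as bars for the 8 members in the 6 comparisons, in all kept cells, HSC-like and multipotent-like cells; filled points have an adjusted p under 0.05. The only filled point is Hoxb5 in multipotent-like cells for Dnmt3a against MxCre (-1.67), and Hoxb2 has the widest bars.

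The near absence of Hoxb2 in Dnmt3a replicates 1 and 2 held across cell classes and was shared by the overlapping Hoxb3os. Among kept cells these libraries had 1 Hoxb2 UMI each against 154 to 1265 in the other 12, and over all barcodes, with no filter, 3 and 1 against 161 to 1423. Hoxb3os, a non-coding transcript of the cluster, had 4 UMIs in each over all barcodes against 144 to 1680 in the others. In HSC-like cells Hoxb3os stood at 6.56, 6.82 and 9.20 CPM in MxCre, 0.18, 0.24, 25.7 and 24.9 in Dnmt3a, 21.9, 13.1 and 15.2 in Tnfr1KO and 13.3, 11.9, 38.5 and 29.2 in Tnfr2KO mice. The same Dnmt3a mice were the ones at the bottom for both genes, and Tnfr2KO replicates 3 and 4 were among the highest for both. Since the genes overlap and may share reads, the 2 transcripts may not be independent measurements. The other members of the cluster had UMIs there, at different levels against the other Dnmt3a mice. In HSC-like cells of Dnmt3a replicates 1 and 2 Hoxb3 stood at 7.76 and 6.27 CPM (5.48 and 9.22 in replicates 3 and 4) and Hoxb4 at 20.4 and 14.5 CPM (23.9 and 24.9). Hoxb5 stood at 1.99 and 1.93 CPM (4.93 and 5.53), as low as in Tnfr1KO replicate 3 (1.95). Hoxb5os, which covers Hoxb5, stood at 3.97 and 1.93 CPM, the lowest of the 14 mice, and over all barcodes at 0.633 and 0.326 CPM against 0.647 or more in the other 12. The lowest of those 12 were Dnmt3a replicates 4 and 3 (0.647 and 0.787 CPM). Replicate 4, with 76 Hoxb5os UMIs, differed from replicate 1, with 53, by less than counting error. Among genes averaging 5 CPM or more in HSC-like cells, only Hoxb2 and the chemokine gene Cxcl2 had 0 UMIs in both of these libraries and a UMI in each of the others.

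**Figure D4:**
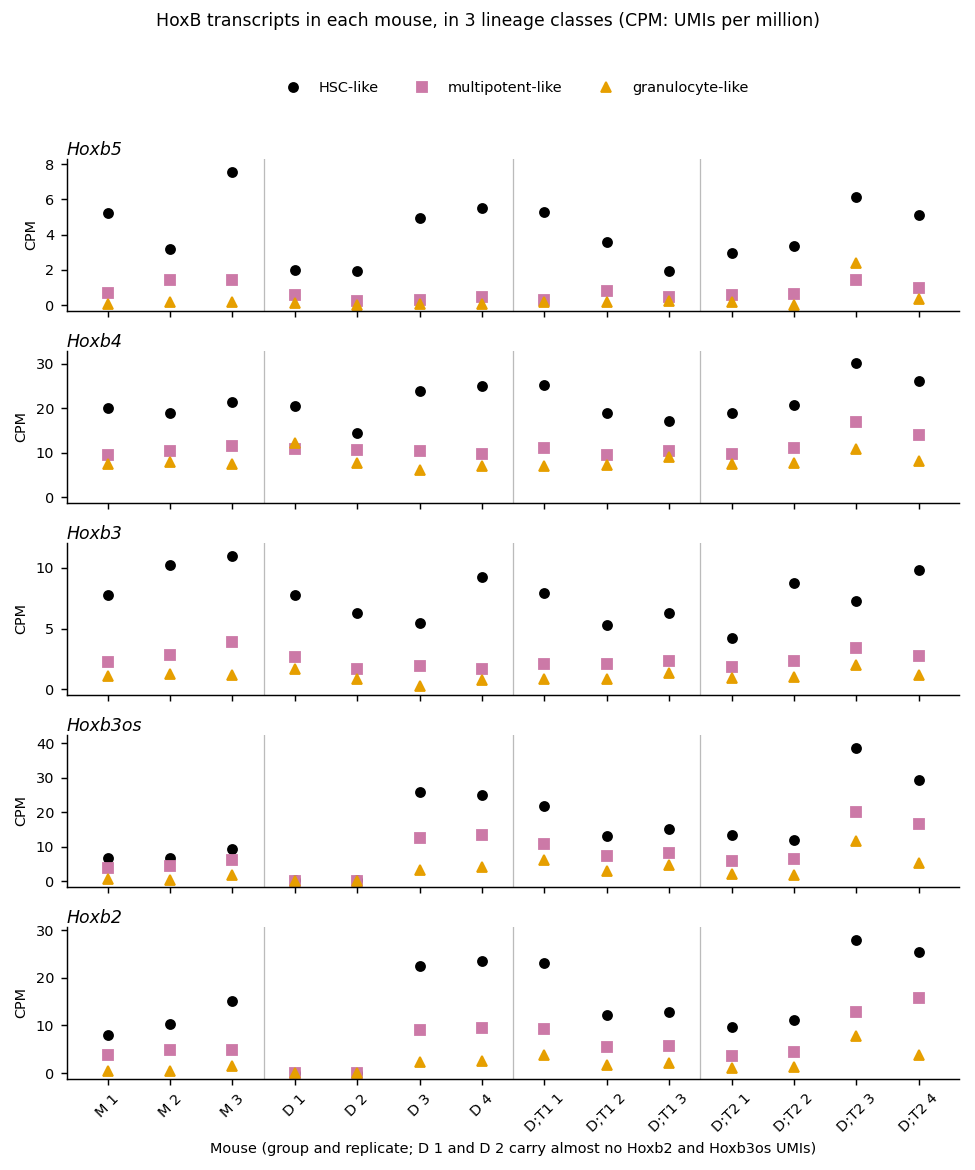
CPM of Hoxb5, Hoxb4, Hoxb3, Hoxb3os and Hoxb2 in each of the 14 mice (x axis, group and replicate) in HSC-like, multipotent-like and granulocyte-like cells. Hoxb2 and Hoxb3os are at or near 0 in all 3 classes of Dnmt3a replicates 1 and 2, while Hoxb4 and Hoxb3 are not.

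In multipotent-like cells Hoxb5 was lower in Dnmt3a than in MxCre mice. It stood at 0.67, 1.4 and 1.4 CPM in MxCre, 0.57, 0.22, 0.27 and 0.48 in Dnmt3a, 0.29, 0.82 and 0.49 in Tnfr1KO and 0.60, 0.63, 1.43 and 0.99 in Tnfr2KO mice. All 4 Dnmt3a mice lay below all 3 MxCre mice, all 4 Tnfr2KO mice lay above all 4 Dnmt3a mice, and the Tnfr1KO mice overlapped with every other group. However, Dnmt3a replicate 1 (0.57 CPM) differed from MxCre replicate 1 (0.67) and Tnfr2KO replicate 1 (0.60) by less than counting error. The share of all genes that separate groups in this way was not counted, for Hoxb5 or for the other genes described here. The log2 fold change was -1.67 ± 0.45 (SE, edgeR adjusted p = 0.0338), in a comparison where 8.61% of all tested genes were called. This was the only one of 8 members called there (4 at an unadjusted p under 0.05, as were 3373 of all 12858 tested genes). Hoxb5 lost its call when MxCre replicate 2, MxCre replicate 3, Dnmt3a replicate 3, Dnmt3a replicate 4 or both Dnmt3a replicates 1 and 2 were left out (edgeR adjusted p up to 0.148). In the other 5 comparisons of multipotent-like cells edgeR called 0 members, with 2, 2, 2, 4 and 0 at an unadjusted p under 0.05. Of all 12858 tested genes, 1411, 1498, 2584, 2438 and 588 passed that cut in the same order. DESeq2 called Hoxb5 for Dnmt3a against MxCre (adjusted p = 0.0129, 12.4% of all tested genes called) and, by 1.46 (log2), for Tnfr2KO against Dnmt3a (adjusted p = 0.0445, 4.39%), and no other member. Calls of other members in these cells under other settings were those of Hoxa10 given above, Hoxa5 for Dnmt3a against MxCre without Dnmt3a replicate 2 (-0.56, edgeR adjusted p = 0.0454, 14.2% of all tested genes called) and Hoxa7 for Tnfr1KO against MxCre without Dnmt3a replicates 1 and 2 (0.33, 0.0419, 1.91%). All tested genes were called at 1% for Tnfr1KO against MxCre, 0.723% for Tnfr2KO against MxCre, 2.01% for Tnfr1KO against Dnmt3a, 1.14% for Tnfr2KO against Dnmt3a and 0.249% for Tnfr2KO against Tnfr1KO.

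In megakaryocyte-like cells the member that was called was Hoxb2, and the call rests on the Dnmt3a replicates 1 and 2 already described. These were the only Dnmt3a mice with at least 20 such cells (73 and 171 cells), and they held 0 Hoxb2 UMIs among 5470430. A count of 0 allows up to 3 UMIs over the group, or 0.548 CPM, so Hoxb2 was at least 15.1-fold higher in MxCre mice (8.29 ± 0.99 CPM, SD, n = 3, 207 UMIs), at least 23.1-fold higher in Tnfr1KO mice (12.7 ± 2.19 CPM, n = 3, 61 UMIs) and at least 20.2-fold higher in Tnfr2KO mice (11.1 ± 6.79 CPM, n = 4, 105 UMIs). These bounds cover counting error only. The edgeR adjusted p was 0.00607 against MxCre, 0.0103 for Tnfr1KO against Dnmt3a and 0.00581 for Tnfr2KO against Dnmt3a, and DESeq2 gave no adjusted p. Leaving out either Dnmt3a mouse leaves 1, which is then assumed to vary like the other groups: all 3 calls were lost without replicate 1 (edgeR adjusted p = 0.129 to 0.159) and held without replicate 2 (0.0186 to 0.0195), where 9.19% to 16.7% of all tested genes were called. All 3 were also lost after thinning cells to 5000 UMIs (edgeR adjusted p up to 0.189). The share of all tested genes called was 1.7% for Dnmt3a against MxCre, 0.331% for Tnfr1KO against Dnmt3a and 0.426% for Tnfr2KO against Dnmt3a, where 1 of 8 members was called each time. It was 0.274% for Tnfr1KO against MxCre, 0.53% for Tnfr2KO against MxCre and 0.104% for Tnfr2KO against Tnfr1KO, where 0 were called by edgeR or DESeq2 and 1, 2 and 0 had an unadjusted p under 0.05. Of all 10575 tested genes, 646, 782 and 443 passed that last cut with edgeR in the same order. Hoxa10 in the same cells stood at 19.6, 20.9 and 19.9 CPM in MxCre, 18.1 and 13.5 in Dnmt3a, 5.58, 10.7 and 10.2 in Tnfr1KO and 13.3, 15.2, 6.66 and 11.9 in Tnfr2KO mice, and was not called in the fit of all groups. For Tnfr1KO against MxCre Hoxa10 did pass without a filter on low counts (-1.13, edgeR adjusted p = 0.00142, 1.32% of all tested genes called), with only the 2 groups compared (0.0212, 0.772%) and without Tnfr2KO replicate 3 (0.0278, 0.342%), and for Tnfr2KO against MxCre without a filter (-0.69, 0.0320, 1.49%).

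In the erythroid-like, basophil/mast-like, granulocyte-like, granulocyte-monocyte-like and monocyte-like classes, edgeR called no member in any of 30 comparisons (180 tests of members that passed the filter on low counts, 16 at an unadjusted p under 0.05, and 0 calls by DESeq2). Genes at that unadjusted cut ran from 112 of all 11072 tested (Tnfr1KO against MxCre, erythroid-like) to 3276 of 12894 (Tnfr2KO against Dnmt3a, granulocyte-like). The share of all tests called in the 6 comparisons of each class was 0.0452% in erythroid-like, 0.233% in basophil/mast-like, 1.95% in granulocyte-like, 1.48% in granulocyte-monocyte-like and 0.385% in monocyte-like cells. Members that did not pass the filter there were low in most mice, such as Hoxb5, which had no UMI in 9 of 14 mice in granulocyte-monocyte-like cells. Without Dnmt3a replicates 1 and 2, which leaves 2 Dnmt3a mice, some members were called, and in erythroid-like cells so were many other genes. Over all barcodes the mice left out had the highest Hoxa10 of the Dnmt3a group (7.04 and 5.15 against 1.19 and 0.443 CPM). They also had its highest Hoxa9 (44.9 and 37.7 against 29.8 and 15.3 CPM), so calls of these genes may follow from the choice. For Dnmt3a against MxCre, Hoxa9 and Hoxa10 were lower in erythroid-like cells (edgeR adjusted p = 0.0364 and 0.0375, 12.8% of all tested genes called) and Hoxa10 in granulocyte-like cells (0.0420, 0.567%). For Tnfr2KO against Dnmt3a, Hoxa9 and Hoxb4 were higher in erythroid-like cells (edgeR adjusted p = 0.0469 and 0.0241, 11.9% of all tested genes called) and Hoxa9 and Hoxa10 in granulocyte-like cells (0.0305 and 0.0394, 1.57%). In the same setting Hoxa9 was higher in monocyte-like cells (edgeR adjusted p = 0.0351, 3.2%) and Hoxa7 in granulocyte-monocyte-like cells (0.0309, 1.77%). With no filter on low counts Hoxb2 was called higher than in MxCre mice in granulocyte-monocyte-like cells of the Dnmt3a, Tnfr1KO and Tnfr2KO groups (edgeR adjusted p = 0.0195, 0.0438 and 0.00111, with 4.37%, 0.385% and 0.591% of all tested genes called). Hoxb2 was low in these cells (1.20 ± 1.58 CPM, SD, n = 14). Dnmt3a replicates 1 and 2 held 3 and 1 Hoxb2 UMIs over all barcodes, so the Dnmt3a call rests on replicates 3 and 4. Hoxb2 was also called in basophil/mast-like cells of Tnfr2KO mice (edgeR adjusted p = 5.37e-04, 0.456%). The same setting called Hoxb5 higher in Tnfr2KO than in Dnmt3a mice in granulocyte-like cells (edgeR adjusted p = 0.0315, 2.39%). There Tnfr2KO replicate 3 held 116 Hoxb5 UMIs (2.38 CPM), and the other Tnfr2KO mice held 7, 1 and 22 (0.168, 0.0281 and 0.368 CPM) against 0 to 2 in each Dnmt3a mouse (0 to 0.145 CPM), so most of the difference was in 1 mouse and the groups overlapped.

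Over all kept cells together, edgeR again called 0 of 8 members in each comparison, and DESeq2 called Hoxb3 (adjusted p = 0.0390) and Hoxb5 (adjusted p = 0.0186) lower in Dnmt3a than in MxCre mice, where it called 9.53% of all tested genes, and 0 members elsewhere. At an unadjusted p under 0.05 edgeR had 3 members for Dnmt3a against MxCre, 3 for Tnfr1KO against MxCre, 2 for Tnfr2KO against Dnmt3a and 0 in the other 3. Of all 15651 tested genes, 3666, 1874, 2422, 3086, 3597 and 599 passed that cut, in the order of the comparisons listed next. All tested genes were called at 2.26% for Dnmt3a against MxCre, 0.345% for Tnfr1KO against MxCre, 0.447% for Tnfr2KO against MxCre, 0.543% for Tnfr1KO against Dnmt3a, 0.978% for Tnfr2KO against Dnmt3a and 0.198% for Tnfr2KO against Tnfr1KO. The log2 fold changes for Dnmt3a against MxCre were -1.84 ± 0.55 (SE, edgeR adjusted p = 0.0779) for Hoxb5, -1.46 ± 0.74 (adjusted p = 0.251) for Hoxa10 and -0.84 ± 0.28 (adjusted p = 0.0987) for Hoxb3, and the members' median was -0.61 against 0.03 for all genes. In such sums fewer cells of a type and less RNA per cell cannot be told apart. HSC-like cells made up 7.78% to 20.0% of kept cells in MxCre, 2.42% to 11.1% in Dnmt3a, 2% to 6.84% in Tnfr1KO and 3.69% to 7.80% in Tnfr2KO mice. The summed HSC markers, all 6 with UMIs, ran from 96.6 to 195 CPM, 53.4 to 132, 44.1 to 92.9 and 50.5 to 95.9, and the summed megakaryocyte markers from 306 to 658, 28.5 to 309, 83.9 to 131 and 42.6 to 182, in the same order. Dnmt3a replicate 4 stood apart in its make-up: 36.1% of its kept cells were B-lymphoid-like, its summed B-lymphoid markers were at 2777 CPM against 33.1 to 199 in the other 13 libraries, and its summed erythroid markers at 3372 against 195 to 956. In its B-lymphoid-like cells the HoxA members lay between 0.177 and 0.473 CPM. Without that mouse the log2 fold changes for Dnmt3a against MxCre were -2.21 for Hoxb5, -1.09 for Hoxa10 and -0.80 for Hoxb3 (edgeR adjusted p = 0.0543, 0.296 and 0.130). The part of these markers in the all-cell values was not tested.

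Other genes of the pathway were read from lists. Of the 13 other HoxA and HoxB genes, 2 passed the filter in HSC-like cells and 0 were called by edgeR for Dnmt3a against MxCre, where 5.48% of all tested genes were called, and most were scarce: Hoxa3 had 561 UMIs in HSC-like cells (7.95 ± 2.38 CPM, SD, n = 14), Hoxa6 150, Hoxa4 91, Hoxa2 72 and Hoxb6 48, while Hoxa11, Hoxa13, Hoxb1 and Hoxb13 had 0. Of 18 HoxC and HoxD genes, 1 passed and was not called. Of the TALE cofactors, homeodomain partners of Hox proteins, 6 of 9 passed and 0 were called, and of 17 MLL and acetyltransferase regulators and 15 Polycomb regulators all passed and 0 were called. At 5.48% over all genes, lists of this size would hold few or no calls. Meis1, the partner of Hoxa9, stood in HSC-like cells at 222 ± 26 CPM in MxCre, 207 ± 15 in Dnmt3a, 158 ± 14 in Tnfr1KO and 173 ± 14 in Tnfr2KO mice (log2 fold changes against MxCre -0.18, -0.44 and -0.31, edgeR adjusted p = 0.333, 0.0928 and 0.198). All 3 Tnfr1KO mice lay below every MxCre and Dnmt3a mouse for Meis1, though the share of all genes that separate so was not counted. Unlike the members, Meis1 was lower in HSC-like than in megakaryocyte-like cells (log2 difference -0.26, edgeR adjusted p = 0.0331).

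Of 10 non-coding genes of the 2 clusters, 4 passed the filter in HSC-like cells and 1, Hotairm1, fell in Dnmt3a and in Tnfr2KO against MxCre, where 5.48% and 0.998% of all tested genes were called. Hotairm1 (chr6:52158524-52162020) is a non-coding transcript of the HoxA cluster, known in myeloid cells. It stood at 10.1, 6.36 and 8.74 CPM in MxCre, 1.81, 2.17, 0.73 and 0.46 in Dnmt3a, 6.62, 5.29 and 2.34 in Tnfr1KO and 1.48, 0.83, 1.67 and 0 in Tnfr2KO mice. Every Dnmt3a and Tnfr2KO mouse lay below every MxCre and Tnfr1KO mouse, although the nearest of them, Dnmt3a replicate 2 with 9 UMIs and Tnfr1KO replicate 3 with 6, differed by less than counting error. The share of all tested genes that split the mice in this way was not counted. The log2 fold change against MxCre was -2.69 ± 0.51 (SE, edgeR adjusted p = 0.00995) in Dnmt3a, -3.25 ± 0.55 (adjusted p = 0.00643) in Tnfr2KO and -0.82 (adjusted p = 0.634) in Tnfr1KO, and the Dnmt3a and Tnfr2KO calls were lost without MxCre replicate 3 (adjusted p = 0.0604 and 0.0542). The difference between Tnfr2KO and Tnfr1KO itself was -2.43 (adjusted p = 0.375), so the receptor genotypes were not shown to differ. In the sums of all kept cells Hoxb5os was higher in Tnfr2KO than in Dnmt3a mice by 2.30 ± 0.47 (log2, SE, edgeR adjusted p = 0.0432), a call kept in 9 of 23 alternatives, where 0.978% of all tested genes were called.

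**Figure D5:**
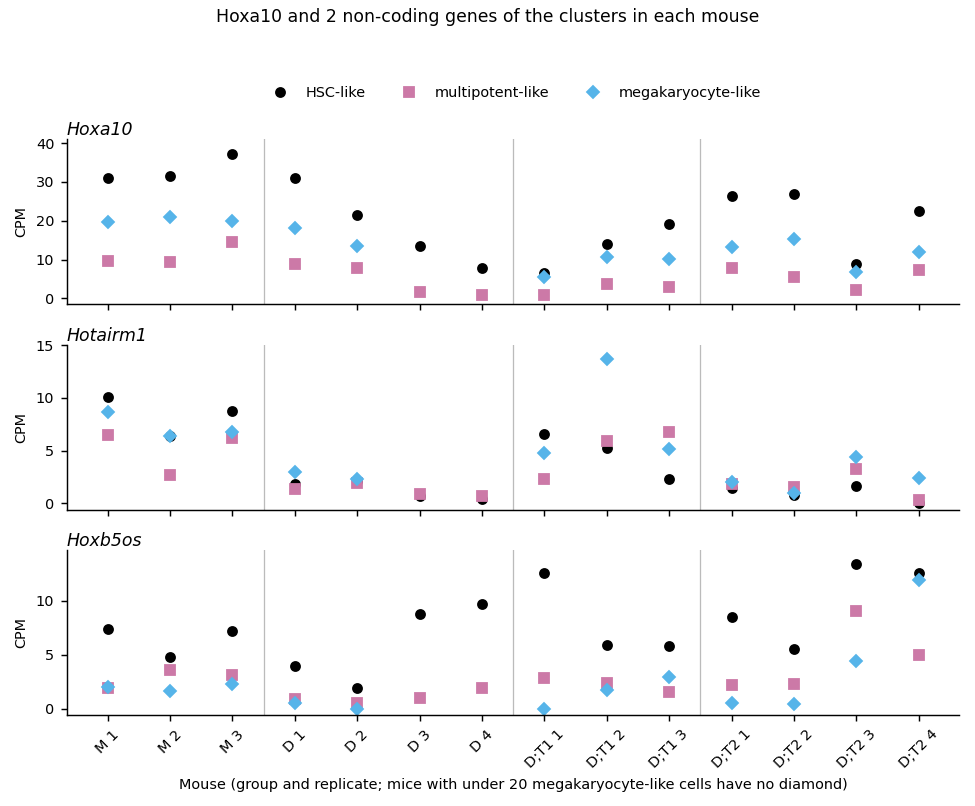
CPM of Hoxa10, Hotairm1 and Hoxb5os in each mouse (x axis, group and replicate) in HSC-like, multipotent-like and megakaryocyte-like cells. In HSC-like cells Hotairm1 lies between 0 and 2.17 CPM in the Dnmt3a and Tnfr2KO mice and between 2.34 and 10.1 CPM in the MxCre and Tnfr1KO mice.

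Of 12 genes described as bound by Hoxa9 and Meis1, all passed the filter in HSC-like cells and 2 rose in Dnmt3a against MxCre, where 5.48% of all tested genes were called. Flt3, a cytokine receptor of multipotent and lymphoid-primed cells, rose by 1.30 ± 0.26 (log2, SE, edgeR adjusted p = 0.0131) in Dnmt3a and by 1.55 ± 0.28 (adjusted p = 0.0162, 0.651% of all tested genes called) in Tnfr1KO mice. The survival gene Bcl2 rose by 0.76 ± 0.15 (adjusted p = 0.0110) in Dnmt3a mice. Flt3 is also 1 of the 5 lymphoid-primed markers, whose sum in HSC-like cells, with 1 of the 5 at 0, ran from 40.1 to 48.4 CPM in MxCre, 62.6 to 235 in Dnmt3a, 128 to 154 in Tnfr1KO and 70.6 to 159 in Tnfr2KO mice. Without MxCre replicate 3 neither Flt3 call held (edgeR adjusted p = 0.0943 and 0.132). Without Dnmt3a replicates 1 and 2 the Dnmt3a value of Flt3 was 0.67 (edgeR adjusted p = 0.0868). The Tnfr1KO call was lost without any of the Tnfr1KO mice, and Bcl2 was lost without MxCre replicate 2 or 3. Of 13 other regulators of Hox genes, 10 passed and Dnmt3a itself rose by 0.48 (edgeR adjusted p = 0.0465) in Dnmt3a against MxCre, a call lost in 18 of 25 alternatives. Over all kept cells the Dnmt3a transcript fell by 0.48 on the log2 scale in Tnfr1KO against Dnmt3a mice (adjusted p = 0.0476, 0.543% of all tested genes called), lost in 16 of 23.

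Across 127 sums of a mouse and a class with at least 50 cells, the genes most like the summed HoxA members by Pearson correlation of log2(CPM + 1), among 9413 genes, were Ptpre (0.90), Rab38 (0.89), Abhd4 (0.88), Runx2 (0.87) and Camk1 (0.86). Those most like the summed HoxB members were Vldlr (0.81), Mecom (0.78), Gcnt2 (0.77), Hlf (0.77) and Esam (0.77). Mecom, Gcnt2 and Hlf are among the markers that defined the HSC-like class. Meis1 ranked 92 for HoxA (0.76) and 9 for HoxB (0.76). The sums share mice, libraries and class rules, so these values are descriptive.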

How the data were processed

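Per the submitters' processing notes, reads were demultiplexed with bcl2fastq 2.20.0.422 and counted with Cell Ranger 6.0.0 on mm10 (GRCm38). The deposited matrices hold raw UMI counts per gene and cell barcode for 14 libraries, without cell names or a cell type annotation. Barcodes needed 1000 or more UMIs, 500 or more genes and no more than 10% mitochondrial UMIs, and doublets were removed by comparison with simulated doublets at 0.8% per 1000 cells. Lineage classes came from marker UMIs, with thresholds set after the cells had been seen. UMIs were summed per mouse and class. Group differences were tested with edgeR 4.0.16 (quasi-likelihood, TMM, filterByExpr) on all 4 groups in 1 fit, with Benjamini-Hochberg adjustment over all genes tested, and DESeq2 1.42.0 as an alternative. Levels are plain CPM of a sum, without TMM factors, and depend on what else the cells express. A 3′ UMI count does not measure full transcripts and gives no comparison of levels between genes. The 14 libraries held 62416022 to 162869740 UMIs, which sets the floor for scarce genes such as Hoxb5. The fit was also run on simulated counts as a check of the code, and its outcome there is not reported here. Members and gene lists were chosen with earlier results of these data known, so no list was independent of them. All members were named in every comparison, other listed genes where called, up to 5 per list, with the cofactor Meis1 always named, and the 5 genes most alike in pattern. Replicate numbers were not used as pairs. After the group mean of each gene was subtracted from log CPM, same-numbered mice of different groups correlated between -0.366 and 0.249 over all cells. Mice of different groups and numbers correlated between -0.306 and 0.349. Of the 115 listed genes, 3 microRNA genes were not used here, and some listed genes are not reported here. Other settings tried were RLE factors, no filter on low counts, only the 2 groups compared, a replicate block, doublets kept, at least 2000 UMIs per cell, cells thinned to 5000 UMIs, other HSC rules and each library left out.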

Additional observations from a re-analysis of the deposited data

Results flagged for a closer look

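Of 72 groups of 4 mice whose spread was examined (the members, Hotairm1, Hoxb3os, Hoxb5os and Meis1, over all kept cells, in HSC-like and in multipotent-like cells), 2 had 1 mouse far from the others, by a gap to its nearest neighbour of over 0.829 of the group's whole range. Chance alone marks about 1 in 20 such groups. Over all kept cells Hoxa10 stood at 1.10 CPM in Tnfr2KO replicate 3, against 3.65 to 4.14 CPM in the other 3 Tnfr2KO mice (0.840 of the range). In HSC-like cells Meis1 stood at 185 CPM in Dnmt3a replicate 2, against 212 to 217 CPM in the other 3 Dnmt3a mice (0.858).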

How the results depend on the processing

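Counts of called members between genotypes were 0 over all cells and in HSC-like cells, and stayed at 0 whichever mouse was left out. For Dnmt3a against MxCre over all cells, DESeq2 called 2 and leaving out Dnmt3a replicates 1 and 2 (chosen after seeing the data) gave 1, Hoxa10. The mice left out had the highest HSC-like Hoxa10 of the Dnmt3a group. For Dnmt3a against MxCre in HSC-like cells, no filter, thinned cells and leaving out Dnmt3a replicates 1 and 2 each gave 1, Hoxa10, and taking cells with an Hlf UMI gave 2, Hoxb3 and Hoxb5. For Tnfr1KO against MxCre, no filter, only the 2 groups and the Hlf rule each gave 1. Over the 7 other classes the 4 calls became 11 with no filter, 2 with DESeq2, 0 with thinned cells, 12 without Dnmt3a replicates 1 and 2, and 1 to 5 with a mouse left out (1 without Dnmt3a replicate 1). The 79 higher contrasts of HSC-like cells stayed at 76 to 80. With the replicate number as a block the counts were still 0, and 4 in the 7 other classes. The numbers share no stated source. In HSC-like cells, with group means subtracted, same-numbered mice of different groups correlated between -0.233 and 0.186, and those with different numbers between -0.283 and 0.303. Of 419 alternatives for 18 results on single genes (9 genes, some in several comparisons), 342 left the call as it was, 69 lost it, 8 gained it and 0 reversed the direction, and the cause was not tested. Counts over all genes moved much more: Dnmt3a against MxCre gave 353 over all cells with edgeR and 1492 with DESeq2 (1 to 1242 with a mouse left out), and 631 and 767 in HSC-like cells (36 to 980).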

Other observations

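The B-lymphoid-like cells of Dnmt3a replicate 4, the library with most such cells, held HoxB genes that were scarce elsewhere. Hoxb7 and Hoxb8 had 264 UMIs each there (15.6 CPM of 16902578 UMIs). In the B-lymphoid-like sums of the other 4 mice with at least 20 such cells, which held only 170301 to 1277840 UMIs, Hoxb7 had 1 UMI in MxCre replicate 3 (5.87 CPM), 1 in Dnmt3a replicate 1 (0.783 CPM) and 0 in the others. Hoxb8 had 2 UMIs in Tnfr1KO replicate 2 (5.69 CPM) and 0 in the others. A count of 0 allows up to 2.35 CPM in Dnmt3a replicate 1, 2.88 in Dnmt3a replicate 3, 8.53 in Tnfr1KO replicate 2 and 17.6 in MxCre replicate 3, and a count of 1 or 2 allows more. In MxCre replicate 3 a level like that of Dnmt3a replicate 4 was thus not detectable as different at this depth. The same holds for Hoxb8 in Tnfr1KO replicate 2. Over all kept cells the same library had 271 Hoxb7 and 274 Hoxb8 UMIs, against 1 to 8 and 0 to 24 in the other 13. In the same B-lymphoid-like cells Hoxb6 had 55 UMIs (3.25 CPM), Hoxb5 46 (2.72 CPM), Hoxb3 57 and Hoxb4 170. This is 1 mouse, with no replicate, and the genes were chosen after their values were seen.

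In Tnfr2KO replicate 3 Hoxb5 had 116 UMIs in granulocyte-like cells (2.38 CPM) and 17 in erythroid-like cells (3.69 CPM), the highest of the 14 mice in both classes. The same mouse had the highest HSC-like Hoxb4, Hoxb2, Hoxb3os and Hoxb5os (30.1, 27.9, 38.5 and 13.4 CPM) and a low HSC-like Hoxa10 (8.92 CPM). These values were also singled out after they were seen, and were not tested.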
